A study of Mus musculus with 228 samples.

Results

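The cells described here are granule cells of the mouse dentate gyrus that had received an Ascl4 virus, parted by whether their RNA held Slc17a7, the gene for the vesicular glutamate transporter VGLUT1. All 51 Ascl4 granule cells past the authors' quality control were used; the series also holds 47 EGFP granule cells, 45 Ascl4 CA1 cells and 46 EGFP CA1 cells. Each cell was scaled to CPM, its reads of a gene per 1000000 reads assigned to genes. The 26 cells chosen by Slc17a7 at 10 CPM or more are called cells with Slc17a7, and the 25 cells under 10 CPM are called cells without it. Both sets came from Calb1-Cre mice aged 3 to 4 months. The ventral hippocampus had received a Cre-dependent adeno-associated virus (AAV) for EGFP together with AAV-Ascl4, and 1 month later single cells were drawn into a patch pipette from acute slices. The 47 EGFP granule cells used for comparison came from the same Cre line and age and carried the EGFP virus alone, so Ascl4 and the presence of a second virus cannot be told apart. The labels name no animal or slice, so each set is treated as a single sample without a test or a p-value. Intervals are exact 95% intervals that cover counting error only.

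VGLUT1 sits in the membrane of synaptic vesicles and loads them with glutamate, using the proton gradient that the vesicular ATPase builds. Dentate granule cells are glutamatergic, and their axons, the mossy fibres, contact pyramidal cells of CA3 and mossy cells of the hilus. Mossy fibre vesicles also hold zinc, and granule cells are known to make the GABA-synthesizing enzyme encoded by Gad1 while lacking most other genes of inhibitory neurons. Ascl4 belongs to the basic helix-loop-helix factors, a family whose members bind DNA at E-boxes.

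Slc17a7 lies on chromosome 7 at 45163949 to 45176142 on the plus strand of GRCm38 (GENCODE vM21). The stretch before its start is shown because this gene parts the cells and because Ascl4 is an E-box factor. It covers the 250 bases before the RefSeq start, GRCm38.p6 chr7:45163671-45163920, and capitals mark an E-box, CANNTG with N any base.
Slc17a7: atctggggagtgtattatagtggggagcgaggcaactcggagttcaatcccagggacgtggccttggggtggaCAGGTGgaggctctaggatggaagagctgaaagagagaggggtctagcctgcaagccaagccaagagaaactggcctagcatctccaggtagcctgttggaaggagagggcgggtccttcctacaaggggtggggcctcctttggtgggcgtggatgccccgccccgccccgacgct
The window held 1 such match. The motif reads the same on both strands, and 66.04% of 27025 RefSeq promoter windows of this length held at least 1. A match of letters says nothing on binding.

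Slc17a7 in the 26 cells with the gene ran from 15.3 to 592 CPM with a median of 158.2 CPM, and in the 25 cells without it from 0 to 7.51 CPM with a median of 0.668 CPM. Only 4 of the 25 had no read at all. The cells nearest the threshold lay at 15.3, 23.6 and 38.5 CPM above it and at 7.51, 5.97 and 2.50 CPM below it, so no cell lay between 7.51 and 15.3 CPM. These values chose the sets and are given as a description. The same threshold was passed by 51.0% of Ascl4 granule cells (26 of 51, interval 36.6 to 65.2%) and by 80.9% of EGFP granule cells (38 of 47, interval 66.7 to 90.9%). Among cells that passed it, the median was 158.2 CPM in Ascl4 cells and 307 CPM in EGFP cells. Thinning every cell to 500000 reads moved 0 Ascl4 granule cells across the threshold.

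**Figure D1:**
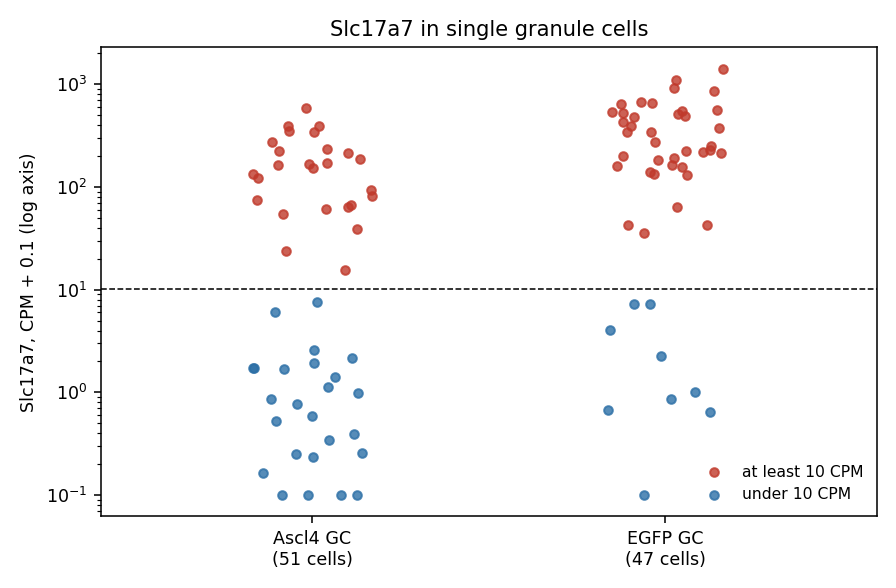
Slc17a7 in each Ascl4 granule cell (left, 51 cells) and each EGFP granule cell (right, 47 cells), in CPM with 0.1 added on a log axis; each point is 1 cell and the dashed line marks 10 CPM. In Ascl4 cells 26 points lie above the line and 25 below, with none between 7.51 and 15.3 CPM.

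Read depth overlapped between the sets, with a median of 5283620 reads in cells with Slc17a7 (range 1344890 to 12875800) and 4365130 reads in cells without it (range 1239700 to 20876400). The number of genes at 10 CPM or more had a median of 3126.5 with Slc17a7 and 2432 without, and after thinning to 500000 reads of 3160.5 and 2435. Without the 6 cells described next, the medians were 2762 genes with Slc17a7 and 2457.5 genes without, at 5390240 and 4427060 reads. Of 8813 genes measured (a read in at least 25% of the 51 cells and at least 10 CPM over all of them), 81.8% were at 10 CPM in a larger share of the cells with Slc17a7, and 65.1% without the 6 cells. The same held in EGFP granule cells, where the medians were 3128 genes in the 38 cells with Slc17a7 and 1520 genes in the 9 cells without, and 88.2% of genes were at 10 CPM in a larger share of the cells with it.

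In all, 6 of the 51 cells stood apart and are named here because several results rest on them. Of these, 4 cells of the set with Slc17a7, the last by title number (up to 120), held 12057 to 14695 genes with a read, against at most 8910 in the other cells of that set and 8221 in the set without. Their summed oligodendrocyte list ran from 62281 to 118461 CPM, their mitochondrially encoded reads made up 7.83 to 23.5% of the total, and their Ascl4 ran from 182.9 to 3043 CPM. Another cell of the set with Slc17a7 had 2267 CPM over the CA1 pyramidal list, 1559 CPM over the granule cell list and 15537 CPM over the microglia list. Title number 27, in the set without Slc17a7, gave 40.7% of its reads to 4 haemoglobin genes, the next highest of the 51 cells being at 4065 CPM. Results below are given for all 51 cells, and the count of each list is also given without these 6.

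**Figure D2:**
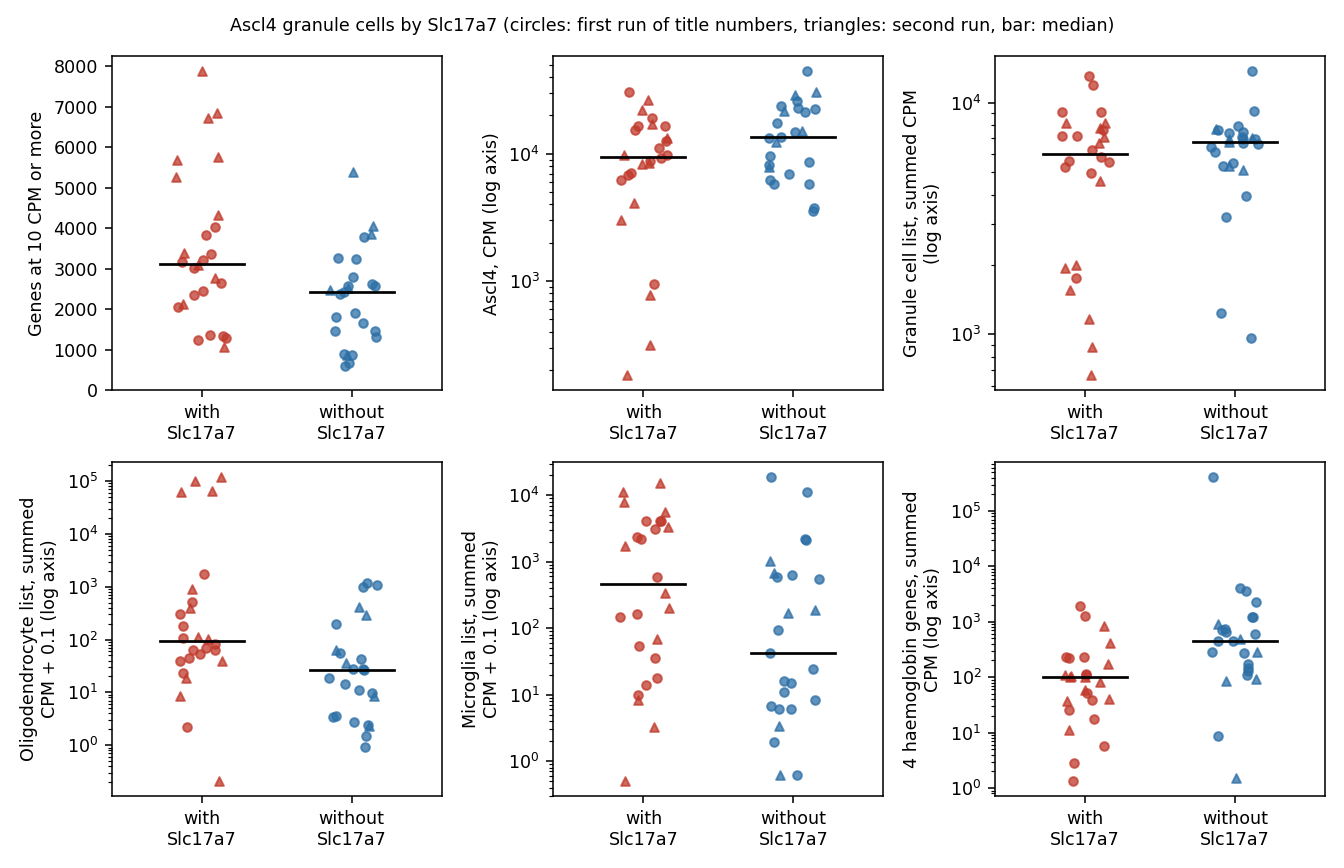
Each panel shows the 26 Ascl4 granule cells with Slc17a7 (left) and the 25 without (right): genes at 10 CPM or more, Ascl4, and the summed CPM of the granule cell, oligodendrocyte and microglia lists and of 4 haemoglobin genes. Circles and triangles are the first and second run of title numbers and bars are medians; 4 triangles with Slc17a7 lie above 50000 CPM on the oligodendrocyte list, and 1 circle without Slc17a7 holds 40.7% haemoglobin reads.

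Ascl4 itself was read in every cell of both sets. It ran from 182.9 to 30591 CPM with a median of 9493 CPM in cells with Slc17a7, and from 3581 to 44534 CPM with a median of 13460 CPM in cells without it; in EGFP granule cells it ran from 0.335 to 221.7 CPM with a median of 24.2 CPM. The sets overlapped widely, and 1 cell with Slc17a7, one of the 4 with more than 12000 genes, lay within the range of EGFP cells. Summed over cells, the log2 ratio of cells with over cells without Slc17a7 was -0.33, and -0.11 without the 6 cells that stood apart. Across the 51 cells, which differ in depth, Spearman's rho between Slc17a7 and Ascl4 CPM was -0.29, and it was -0.22 over the 47 cells with no more than 12000 genes. The deposited counts do not say whether reads of Ascl4 came from the virus or from the cell's own gene.

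Both sets carried granule cell markers. Of 8 such markers, the median cell had 4 at 10 CPM or more in each set, and 1 cell without Slc17a7 had none. The summed granule cell list of 28 genes ran from 667 to 12973 CPM (median 6018 CPM) with Slc17a7 and from 960 to 13659 CPM (median 6768 CPM) without. The 4 cells of more than 12000 genes lay at 667 to 1938 CPM, and without the 6 cells that stood apart the medians were 7112 CPM with Slc17a7 and 6856 CPM without, so their order turned. Calb1, the calcium buffer calbindin whose locus drives Cre in these mice, was at 10 CPM or more in 24 of 26 cells with Slc17a7 and 24 of 25 without. Prox1, the transcription factor that holds granule cell fate, reached 10 CPM in 16 of 26 cells with Slc17a7 and 8 of 25 without, against 25 of 47 EGFP granule cells. C1ql2, a secreted organizer of mossy fibre synapses, reached it in 11 of 26 cells with Slc17a7 and 12 of 25 without, against 38 of 47 EGFP cells. The pyramidal cell factor Neurod6 reached 10 CPM in 1 of 26 cells with Slc17a7 and 0 of 25 without, and Fibcd1, a CA1 marker, in none of either set, which allows a share of up to 11.5% and 12% of cells.

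Genes were counted as higher with Slc17a7 when they were at least 1.5-fold higher in summed CPM, at least 1.5-fold higher in the mean over cells without each set's highest cell, and at 10 CPM in a larger share of cells; genes counted as lower met the mirror of this. By this rule of size 2730 of 8813 genes were higher (31%) and 896 were lower (10.2%). Without the 4 cells of more than 12000 genes 2605 (29.6%) were higher and 1286 (14.6%) lower, and without all 6 cells that stood apart 2484 (28.2%) were higher and 1460 (16.6%) lower. The median log2 ratio over all measured genes was 0.16 in all cells and 0.19 without the 6 cells. A share of listed genes is read below against these percentages, and a list's median against 0.16. Genes named from a list were mostly its members with the largest difference in share of cells between these same sets. Their shares and log2 ratios, in all cells or by run, are therefore a description and do not stand for the list.

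Genes counted in one part of the cells were counted in another about as often as any gene. The title numbers of Ascl4 granule cells form 2 runs, one of 21 to 57 and one that ends at 120, which the labels do not call batches. Slc17a7 was at 10 CPM in 14 of 33 cells of the first run (42.4%, interval 25.5 to 60.8%) and 12 of 18 of the second (66.7%, interval 40.99 to 86.7%). In the first run, with 14 cells with Slc17a7 and 19 without, 2429 genes were higher (27.6%) and 1661 lower (18.8%); in the second, with 12 and 6 cells, 3517 were higher (39.9%) and 883 lower (10%). Of the genes higher in the first run, 38.3% were higher in the second, where 39.9% of all measured genes were; of those lower in the first run, 11.6% were lower in the second, where 10% of all genes were. Across the 8813 genes, which are not independent replicates, Spearman's rho between the log2 ratios of the runs was -0.01. With the 4 cells of more than 12000 genes left out of the second run, 2625 genes (29.8%) were higher and 1358 (15.4%) lower there, and those shares were 29.6% and 16.7% among the genes higher and lower in the first run. Each share lay within 2 percentage points of that of all genes.

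In EGFP granule cells the shares were also close to those of all genes. Parted at the same threshold, 38 cells with and 9 without Slc17a7, they had 4756 of the 8813 genes higher (54.0%) and 262 lower (2.97%), and the median log2 ratio was 1.25. Of the genes higher in Ascl4 cells 56.5% were higher in EGFP cells too, and of those lower 4.02% were lower too, each within 3 percentage points of the share among all genes. Spearman's rho between the log2 ratios of Ascl4 and EGFP cells across genes was 0.03.

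**Figure D3:**
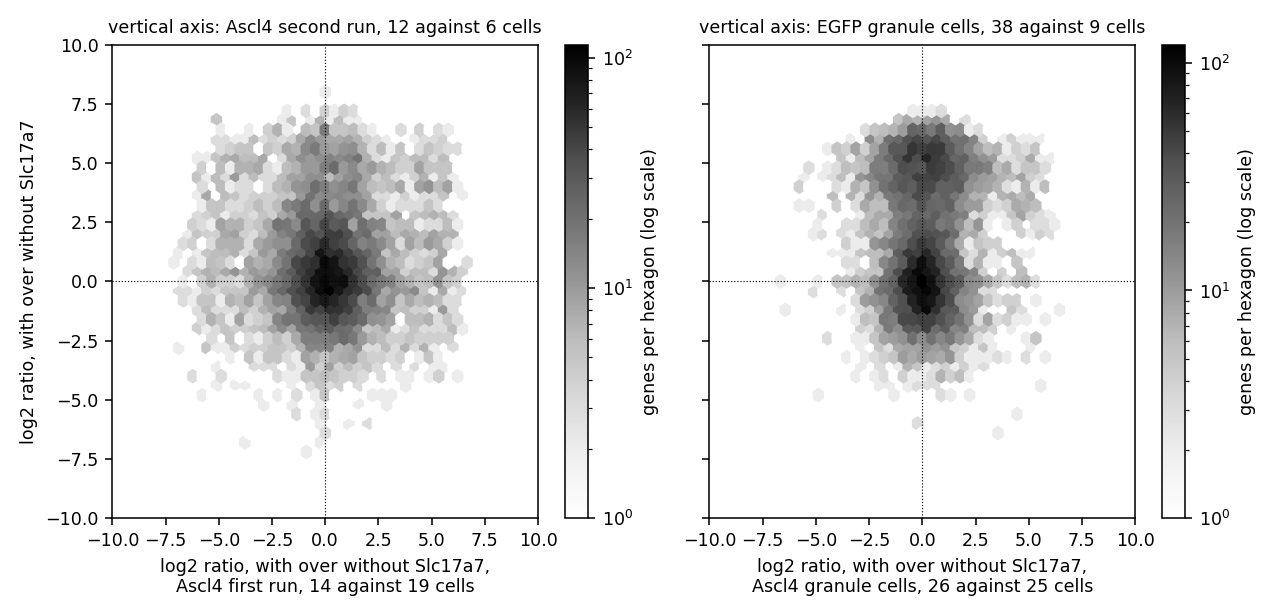
Log2 ratios of CPM of cells with over cells without Slc17a7 for 8813 genes, with darker hexagons holding more genes on a log scale. Left, second run against first run of Ascl4 granule cells (Spearman's rho -0.01); right, EGFP granule cells against all Ascl4 granule cells (rho 0.03); neither cloud follows a diagonal.

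RNA of the other vesicular glutamate transporters was nearly absent from both sets. Slc17a6, which encodes VGLUT2, was at 10 CPM in 0 of 26 cells with Slc17a7 and 1 of 25 without, the highest cells being at 0.671 and 82.8 CPM. Slc17a8, which encodes VGLUT3, reached 10 CPM in no cell of either set, and its highest cell was at 1.402 CPM with Slc17a7 and 0 without. Of the 15 genes listed for glutamate supply and transport 11 were measured, of which 6 were higher and 1 was lower, with a median log2 ratio of 0.65; without the 6 cells that stood apart 4 were higher, 2 lower and the median was 0.29.

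Glud1, the mitochondrial glutamate dehydrogenase, ran from 0 to 551 CPM (median 145.3 CPM) with Slc17a7 and from 0 to 505 CPM (median 0.983 CPM) without. It reached 10 CPM in 16 of 26 cells with Slc17a7 and 7 of 25 without, and its log2 ratio was 1.58 in all cells, 1.56 in the first run and 1.47 in the second. The sets overlapped, but the median cell without Slc17a7 had almost no Glud1 read. Slc1a2 and Slc1a3, which encode the glial glutamate uptake transporters GLT-1 and GLAST, reached 10 CPM in 15 and 7 of 26 cells with Slc17a7, against 5 and 0 of 25 without. These shares include the 4 cells of more than 12000 genes, which held 4900 to 8908 CPM over an astrocyte list that includes both genes. Without the 6 cells that stood apart the log2 ratios of Slc1a2 and Slc1a3 were 1.45 and 6.01. For Slc1a3 no more than 7 cells at 10 CPM lie behind that ratio. Slc25a22, a mitochondrial glutamate carrier, had a log2 ratio of -1.93 and was at 10 CPM in 11 of 26 cells with Slc17a7 and 12 of 25 without.

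Among neuronal lists with at least 5 measured genes, that for zinc and the mossy fibre synapse had the highest median log2 ratio in all cells. Without the 6 cells that stood apart the CA3 and mossy cell list, with 5 measured genes, was higher, at 1.34 against 1.15. In cells within the interquartile range of genes at 10 CPM the mossy fibre list was at 0.67 and that for glutamate supply at 0.77. Of the 22 mossy fibre genes 16 were measured, of which 10 were higher and 2 lower, against 31% and 10.2% of all genes. Their median log2 ratio was 1.32. Without the 6 cells 8 were higher and 0 lower, with a median of 1.15. The median was 1.43 in the first run, where that of all genes was 0.14, and 0.70 in the second, where that of all genes was 0.51; in EGFP cells it was 1.82, against 1.25 over all genes. With the authors' normalized values it was 0.29, where that of all genes was -0.12. The list's summed level in the median cell was 1757 CPM with Slc17a7 and 1659 CPM without, and 2396 CPM and 1669 CPM without the 6 cells.

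Lrrtm4, a postsynaptic adhesion protein of granule cells, ran from 0 to 1342 CPM (median 10.9 CPM) with Slc17a7 and from 0 to 349 CPM (median 0.905 CPM) without. It was at 10 CPM in 13 of 26 cells with Slc17a7 and 5 of 25 without, and its log2 ratio was 2.06 in the first run and 2.29 in the second. Grik2, a kainate receptor subunit of the mossy fibre synapse, was at 10 CPM in 11 of 26 cells with Slc17a7 and 6 of 25 without, and its log2 ratio was 1.37 in the first run and 3.36 in the second. Rims1, a scaffold of the presynaptic release site, was at 10 CPM in 14 of 26 cells with Slc17a7 and 5 of 25 without with a log2 ratio of 1.62, which was 0.86 without the 6 cells that stood apart. Afdn, an adherens junction protein, was at 10 CPM in 10 of 26 cells with Slc17a7 and 4 of 25 without, but its log2 ratio was -0.17 in the first run and 5.75 in the second. None of these 4 genes reached 10 CPM in more than 14 of the 26 cells with Slc17a7.

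Slc30a3 encodes ZnT3, which fills mossy fibre vesicles with zinc, and did not go with Slc17a7 in Ascl4 cells. It ran from 0 to 1001 CPM (median 16.003 CPM) in cells with Slc17a7 and from 0 to 2119 CPM (median 70.97 CPM) in cells without, and reached 10 CPM in 13 of 26 cells with Slc17a7 and 14 of 25 without. The 2 sets overlapped over nearly the whole range. In cells within the interquartile range of genes at 10 CPM the log2 ratio of Slc30a3 turned positive. In EGFP cells Slc30a3 reached 10 CPM in 28 of the 38 cells with Slc17a7. It did so in 0 of the 9 without, which allows a share of up to 33.3% of cells. C1ql2 reached it in 11 of 26 Ascl4 cells with Slc17a7 and 12 of 25 without, against 35 of 38 EGFP cells with Slc17a7 and 3 of 9 without. No test of the difference between Ascl4 and EGFP cells was possible, and in EGFP cells most genes leaned the same way.

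Genes of vesicle release were on balance at like levels. Of 31 listed genes 30 were measured, 6 were higher and 3 lower, and the median log2 ratio was -0.08. Without the 6 cells that stood apart 5 were higher and 4 lower, with a median of -0.01. Syn1, which tethers vesicles to actin, ran from 1.25 to 1786 CPM (median 271 CPM) with Slc17a7 and from 0.269 to 628 CPM (median 16.3 CPM) without; it reached 10 CPM in 22 of 26 cells with Slc17a7 and 14 of 25 without, and its log2 ratio was 1.46 in the first run and 1.44 in the second. Amph, an endocytic adaptor, was at 10 CPM in 15 of 26 cells with Slc17a7 and 8 of 25 without with a log2 ratio of 1.77. Napb, which recycles SNARE complexes, was at 10 CPM in 21 of 26 cells with Slc17a7 and 9 of 25 without, yet its log2 ratio was 2.93 in the first run and -0.50 in the second.

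Atp6v0a1, a subunit of the proton pump that energizes VGLUT1, went the other way. It ran from 1.01 to 747 CPM (median 84.7 CPM) with Slc17a7 and from 0.484 to 3420 CPM (median 238 CPM) without, reached 10 CPM in 16 of 26 cells with Slc17a7 and 21 of 25 without, and its log2 ratio was -1.34 in the first run and -1.78 in the second. In EGFP cells it was at 10 CPM in 31 of 38 cells with Slc17a7 and 3 of 9 without, with a log2 ratio of 3.45. Complexin 2, encoded by Cplx2, reached 10 CPM in 24 of 26 cells with Slc17a7 and 15 of 25 without although its log2 ratio was -0.07. More cells held Cplx2 RNA while its summed level was nearly even.

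Of 26 genes for glutamate receptors and postsynaptic scaffolds 22 were measured, 2 were higher and 3 lower, and the median log2 ratio was -0.08; without the 6 cells 3 were higher and 3 lower (median 0.08). Lrrtm1, an adhesion protein of excitatory synapses, was at 10 CPM in 14 of 26 cells with Slc17a7 and 7 of 25 without, and its log2 ratio was -0.38 in the first run and 4.07 in the second. The AMPA receptor subunit gene Gria1 was at 10 CPM in 22 of 26 cells with Slc17a7 and 22 of 25 without with a log2 ratio of -0.83, and was counted as lower. Of 30 ion channel genes 25 were measured, 8 were higher and 2 lower, and the median log2 ratio was 0.48; without the 6 cells 7 were higher and 3 lower (median 0.50). Scn3b, a sodium channel beta subunit, was at 10 CPM in 7 of 26 cells with Slc17a7 and 1 of 25 without.

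Apart from Gad1, defining genes of inhibitory neurons were rare in both sets. Of 6 genes for GABA synthesis and transport 3 were measured, with 2 higher and 0 lower, and of 16 interneuron genes 4 were measured, with 1 higher and 2 lower. These were 1 and 0, and 0 and 2, without the 6 cells. Gad1 ran from 0.388 to 1871 CPM (median 382 CPM) with Slc17a7 and from 0.136 to 1736 CPM (median 106.01 CPM) without, and reached 10 CPM in 18 of 26 cells with Slc17a7 and 15 of 25 without. It was thus present in both sets, and was at 10 CPM in 41 of 47 EGFP cells. Gad2, which encodes the other GABA-synthesizing enzyme, reached 10 CPM in 0 of 26 cells with Slc17a7 and 1 of 25 without, and Slc32a1, whose product loads vesicles with GABA, in none of either set. Sst and Vip, neuropeptide genes of interneurons, reached it in 1 and 0 of 26 cells with Slc17a7 and in 4 and 1 of 25 without. Pvalb, the parvalbumin gene of another interneuron class, reached it in 4 of 26 cells with Slc17a7, of which 2 had more than 12000 genes, and in 0 of 25 without. Cck, a neuropeptide gene on the interneuron list that excitatory neurons also use, ran from 1.51 to 1391 CPM (median 313 CPM) with Slc17a7 and from 4.03 to 5164 CPM (median 738 CPM) without, and its log2 ratio was -0.94 in the first run and -2.02 in the second.

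Among 28 genes of granule cell identity 24 were measured, 6 were higher and 1 was lower, and the median log2 ratio was 0.14, next to 0.16 over all genes; without the 6 cells 6 were higher and 0 lower (median 0.22). Prox1 ran from 0 to 1819 CPM (median 23.5 CPM) with Slc17a7 and from 0 to 693 CPM (median 2.21 CPM) without, but its log2 ratio was 1.54 in the first run and -1.54 in the second. Maml2, a coactivator of Notch signalling, was at 10 CPM in 12 of 26 cells with Slc17a7 and 4 of 25 without with log2 ratios of 1.49 and 3.72. Calb1 was the lower one, with medians of 684 CPM with Slc17a7 and 1302 CPM without and a log2 ratio of -0.92, or -0.68 without the 6 cells that stood apart, where it was no longer counted as lower. Of 20 listed helix-loop-helix genes, which include partners and inhibitors of such factors, 15 were measured, 5 were higher and 1 lower, and the median log2 ratio was 0.01; without the 6 cells 4 were higher and 3 lower (median -0.06).

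The genes with the largest difference in share of cells, among those at least 1.5-fold higher in both runs, were genes of many functions. Podxl2, a cell-surface sialomucin, ran from 0 to 653 CPM (median 88.3 CPM) with Slc17a7 and from 0 to 116.6 CPM (median 0.591 CPM) without. It was at 10 CPM in 16 of 26 cells (61.5%) and 2 of 25 cells (8%), and its log2 ratio was 5.19. The gene was chosen by this difference in share, so these values are a description. Echdc1, a metabolite repair enzyme, was at 10 CPM in 12 of 26 cells with Slc17a7 and 0 of 25 without. Its maxima were 380 and 0.891 CPM. Its log2 ratio was 5.78 in the first run and 5.71 in the second, a shared direction that the choice required. No cell without Slc17a7 came near the level of the 12 cells that held Echdc1, while the other 14 cells with Slc17a7 lay under 10 CPM.

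Rnf146, a ubiquitin ligase of poly(ADP-ribosyl)ated proteins, was at 10 CPM in 13 of 26 cells with Slc17a7 and 1 of 25 without. Gtf2f1, a general transcription factor subunit, was at 10 CPM in 20 of 26 cells with Slc17a7 and 6 of 25 without, and Eif3h, a translation initiation factor subunit, in 19 of 26 cells with Slc17a7 and 6 of 25 without. Tsg101, a subunit of the ESCRT sorting machinery, and Atox1, a copper chaperone, were each at 10 CPM in 17 of 26 cells with Slc17a7 and 5 of 25 without. The others of the 12 were Ppm1g, Degs1, Eny2, Parp6 and Zmat5, at 10 CPM in 15 to 17 cells with Slc17a7 and 3 to 5 without. The log2 ratio of Parp6 was 1.25, but -0.47 as a mean of per-cell CPM and -1.98 with the authors' normalized values. In EGFP cells Podxl2, Echdc1, Rnf146, Ppm1g and Tsg101 were at 10 CPM in 14, 10, 10, 11 and 23 of 38 cells with Slc17a7. Each was at 10 CPM in 0 of 9 without, which allows a share of up to 33.3% of such cells for each gene. Of all measured genes, 88.2% were at 10 CPM in a larger share of the EGFP cells with Slc17a7, and 54.0% were counted as higher there. Gtf2f1, Degs1, Atox1 and Parp6 had log2 ratios under 0 in EGFP cells, at -1.13, -0.77, -1.47 and -0.48.

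Sez6l2, a neuronal membrane protein, led the neuronal genes that were lower with Slc17a7. It ran from 0 to 349 CPM (median 3.98 CPM) with Slc17a7 and from 0.229 to 1878 CPM (median 70.004 CPM) without. It reached 10 CPM in 9 of 26 cells with Slc17a7 and 16 of 25 without. Its log2 ratio was -2.56 in the first run and -2.99 in the second. The naming rule took only genes at least 1.5-fold lower in both runs, so this shared direction was set by the choice. Npas4, an activity-regulated transcription factor, ran from 0.111 to 517 CPM (median 2.92 CPM) with Slc17a7 and from 0 to 2148 CPM (median 45.2 CPM) without, with log2 ratios of -2.06 and -0.85. It is the activity gene whose share of cells differed most, yet of 25 measured activity-regulated genes 5 were higher and 3 lower (6 and 2 without the 6 cells), and Fos, Arc and Egr1 were counted in neither direction.

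Lsamp, an adhesion protein of limbic neurons, was at 10 CPM in 11 of 26 cells with Slc17a7 and 16 of 25 without with a log2 ratio of -1.93. Map2k4, a stress kinase, was at 10 CPM in 7 of 26 cells with Slc17a7 and 12 of 25 without, and Snrpa, a spliceosome protein, in 6 of 26 cells with Slc17a7 and 11 of 25 without. Ripor2, Tnrc18, Ndufb4 and Sec1 were at 10 CPM in 3 to 9 cells with Slc17a7 and 9 to 14 without. None of these sets of values parted the cells, since each gene was also present in some cells with Slc17a7.

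**Figure D4:**
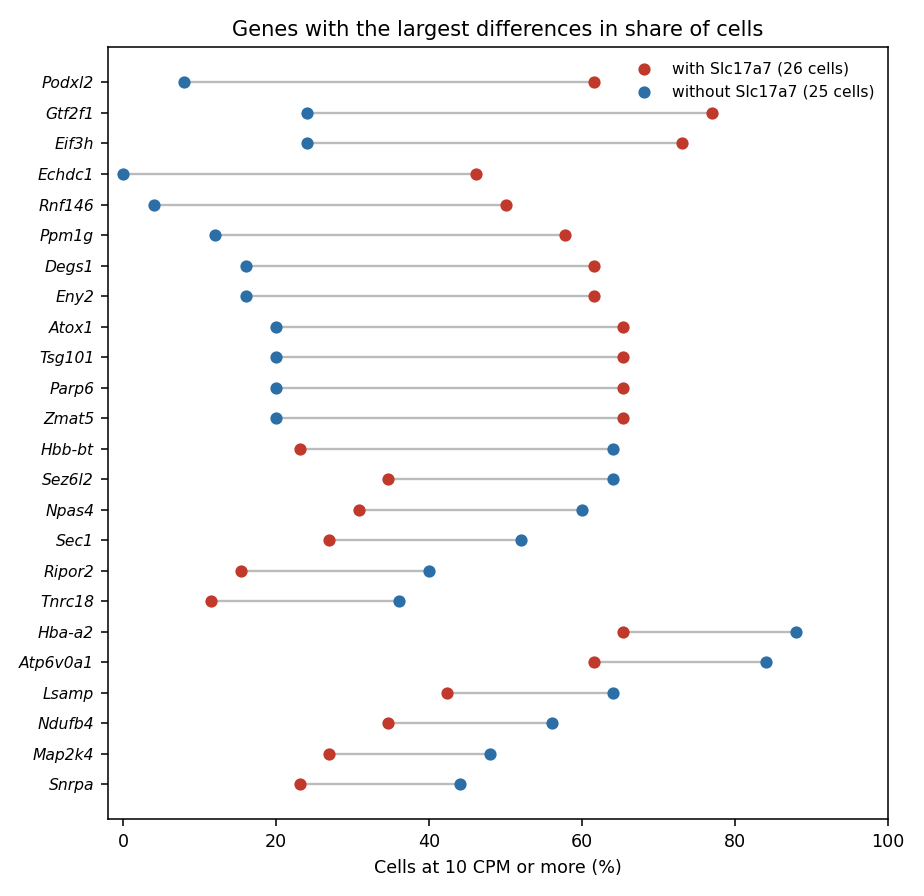
Share of cells at 10 CPM or more for the 12 genes with the largest difference in each direction, in the 26 Ascl4 granule cells with Slc17a7 (red) and the 25 without (blue). Echdc1 reaches 46.2% and 0%, and no gene reaches 100% in one set and 0% in the other.

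Haemoglobin genes made up 2 of the 12 lower genes, Hbb-bt and Hba-a2, and their near copies Hbb-bs and Hba-a1 can share reads with them. Summed over the 4 genes, cells with Slc17a7 ran from 1.33 to 1890 CPM (median 100.5 CPM) and cells without from 1.49 to 406925 CPM (median 454 CPM). The sum was at 100 CPM or more in 14 of 26 cells with Slc17a7 and 21 of 25 without, so cells other than title number 27 were high too. Without the 6 cells that stood apart the log2 ratios of Hbb-bt, Hbb-bs, Hba-a2 and Hba-a1 were -1.96, -1.68, -1.402 and -1.72. In the second run Hbb-bs had a log2 ratio of 0.01. In EGFP cells the median of the sum was 247 CPM with Slc17a7 and 1274 CPM without, which is the same direction. The part of blood RNA in the other differences was not tested.

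Lists of oligodendrocyte, astrocyte and microglia genes leaned higher with Slc17a7 in all cells, but less so or no longer without the 6 cells that stood apart. The oligodendrocyte list had 5 of 16 genes measured, all of them higher with a median log2 ratio of 6.87, but without the 6 cells that stood apart 1 was higher and the median was 1.34, and Mbp, the myelin basic protein gene, had log2 ratios of 6.87 and 0.01. Of 9 measured astrocyte genes 6 were higher (median 1.32); without the 6 cells 3 were higher and 3 lower (median 0.40), and Aqp4, the astrocyte water channel, was at 10 CPM in 4 of 26 cells with Slc17a7, all 4 among those with more than 12000 genes, and 0 of 25 without.

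Microglia genes had 8 of 17 measured members higher and 0 lower (median 0.53), and 1 higher and 5 lower (median -0.63) without the 6 cells, so the direction turned. Their summed level ran from 0.401 to 15537 CPM (median 465 CPM) in cells with Slc17a7 and from 0.508 to 18693 CPM (median 42.8 CPM) in cells without. With the 6 cells left out the medians were 162.6 CPM with Slc17a7 and 33.3 CPM without, the opposite order to the list's median log2 ratio. P2ry12, Cx3cr1 and Tmem119, genes that define microglia, were at 10 CPM in 7, 6 and 5 of 26 cells with Slc17a7 and in 0 of 25 without. C1qa, C1qb and C1qc, also on the list, were at 10 CPM in 9, 12 and 11 of 26 cells with Slc17a7 and in 5, 4 and 3 of 25 without. With the 4 cells of more than 12000 genes left out, P2ry12, Cx3cr1 and Tmem119 were at 10 CPM in 3, 2 and 2 of 22 cells. C1qa, C1qb and C1qc were then at 10 CPM in 5, 8 and 7 of 22 cells. The summed CA1 pyramidal list also differed, with a median of 198.8 CPM (range 0.111 to 2267 CPM) in cells with Slc17a7 and 2.39 CPM (range 0.408 to 2289 CPM) in cells without. Of its 16 genes 4 were measured, with 3 higher and 0 lower: Wfs1, at 10 CPM in 9 of 26 cells with Slc17a7 and 0 of 25 without, Ndst3 in 5 and 0, Sv2b in 6 and 1, and Cpne7 in 9 and 7, whereas Neurod6 and Fibcd1 were nearly absent. Without the 6 cells 2 of the 4 were higher and 1, Cpne7, was lower with a log2 ratio of -1.36, and the summed medians were 89.9 CPM with Slc17a7 and 2.31 CPM without. With the 4 cells of more than 12000 genes left out, Wfs1, Ndst3 and Sv2b were at 10 CPM in 5, 2 and 2 of 22 cells with Slc17a7. No endothelial gene was measured, and Cldn5 was at 10 CPM in 1 of 26 cells with Slc17a7 and 0 of 25 without. The part of these cell types in the differences between the sets was not tested.

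Interferon-response genes, which respond to virus and cytokines, were mixed, with 9 of 19 measured genes higher and 5 lower (median 0.47), and 7 and 7 without the 6 cells (median 0.44). Their summed level was 807 CPM in the median cell with Slc17a7 and 1170 CPM without, against 9.09 CPM in the median EGFP cell. Ifitm3, an antiviral membrane protein, reached 10 CPM in 9 of 26 cells with Slc17a7 and 2 of 25 without. Ifit3 and Usp18, both interferon-induced, went the other way, with log2 ratios of -3.14 and -4.14. Of 11 measured MHC genes 3 were higher and 0 lower (median -0.21), and 3 and 4 without the 6 cells (median -0.73). The summed MHC list was 640 CPM in the median cell with Slc17a7 and 55.8 CPM without. Without the 6 cells these medians were 404 CPM and 89.6 CPM, the opposite order to the list's median log2 ratio. That sum was at 100 CPM or more in 20 of 26 cells with Slc17a7 and 12 of 25 without. Psmb9, an immunoproteasome subunit, was at 10 CPM in 8 of 26 cells with Slc17a7 and 0 of 25 without, and the MHC class I gene H2-D1 had log2 ratios of -2.66 in the first run and 1.96 in the second.

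**Figure D5:**
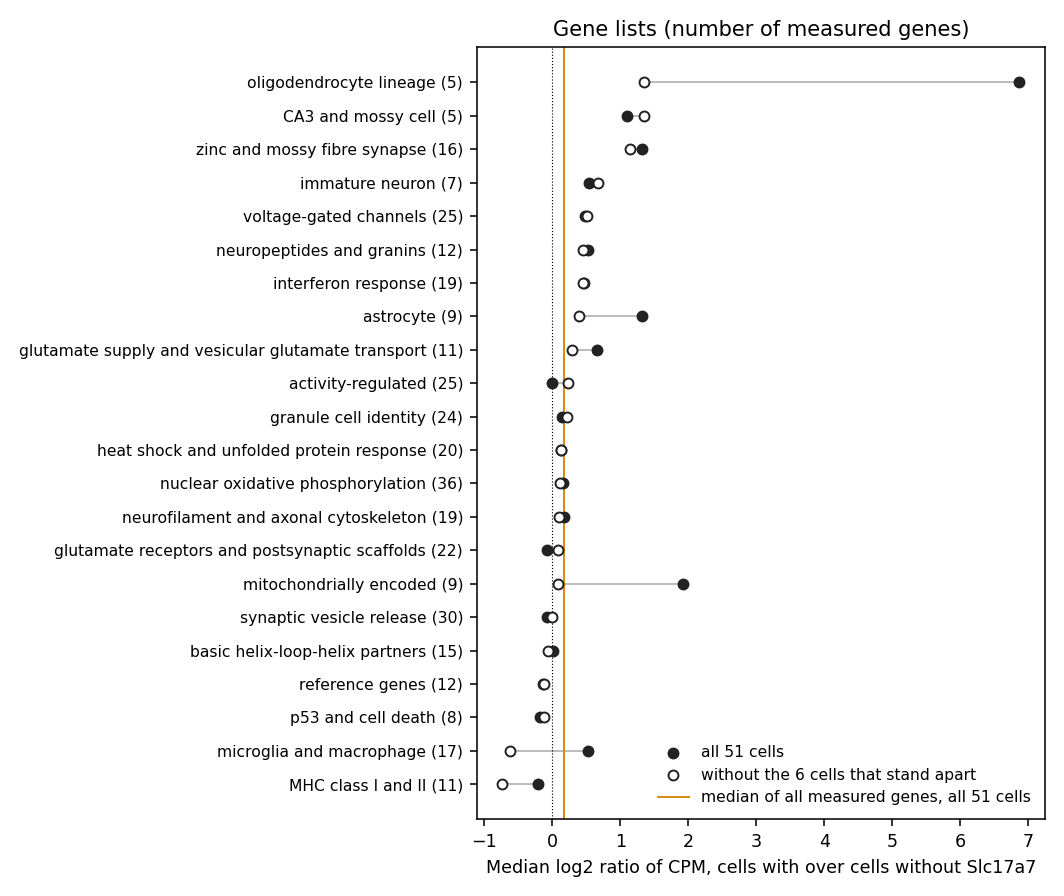
Median log2 ratio of CPM of cells with over cells without Slc17a7 for each list with at least 5 measured genes (number in brackets), in all 51 cells (filled) and without the 6 cells that stood apart (open); the line marks 0.16, the median of all measured genes. The oligodendrocyte, mitochondrially encoded and microglia lists moved most when the 6 cells were left out, and the mossy fibre list stayed near 1.

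Mitochondrially encoded genes had 7 of 9 measured members higher (median 1.92), and 0 higher and 0 lower (median 0.08) without the 6 cells. The 36 nuclear genes of oxidative phosphorylation were all measured, 4 were higher and 0 lower, and their median was 0.16, that of all genes; without the 6 cells these were 4, 0 and 0.11. Cox7a2 and Atp5e, small subunits of cytochrome oxidase and ATP synthase, reached 10 CPM in 25 and 22 of 26 cells with Slc17a7 and in 16 and 10 of 25 without. Of 20 measured heat shock and unfolded protein genes 3 were higher and 2 lower (median 0.12), and 5 and 2 without the 6 cells, with the co-chaperone gene Dnajb1 at 10 CPM in 18 of 26 cells with Slc17a7 and 7 of 25 without. Of 8 measured p53 and cell death genes 2 were higher and 2 lower (median -0.18), or 3 and 2 without the 6 cells, and Ccng1, a p53 target, was at 10 CPM in 12 of 26 cells with Slc17a7 and 4 of 25 without. Of 12 reference genes 2 were higher and 1 lower (median -0.14), or 1 and 2 without the 6 cells, and Hprt was at 10 CPM in 17 of 26 cells with Slc17a7 and 6 of 25 without.

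Of 13 immature neuron genes 7 were measured, 2 were higher and 0 lower (median 0.54), or 3 and 0 without the 6 cells. Tubb3, a neuronal tubulin, ran from 0 to 1499 CPM with Slc17a7 and from 0 to 646 CPM without, and was at 10 CPM in 11 of 26 cells with Slc17a7 and 2 of 25 without, and its log2 ratio was 2.32 in the first run and 6.30 in the second; Dcx, which marks newborn neurons, was at 10 CPM in 6 of 26 cells with Slc17a7 and 2 of 25 without. Of 5 measured CA3 and mossy cell genes 3 were higher and 1 lower (median 1.10), as without the 6 cells (median 1.34). Ociad2 was at 10 CPM in 7 of 26 cells with Slc17a7 and 0 of 25 without, and Grik4, a kainate receptor subunit of CA3, in 4 and 0. Neuropeptide and granin genes had 4 of 12 higher and 3 lower (median 0.52), the same counts as without the 6 cells, with the granin gene Chgb at 10 CPM in 16 of 26 cells with Slc17a7 and 9 of 25 without. Of 19 measured genes of the axonal cytoskeleton 4 were higher and 2 lower (median 0.17), and 2 and 3 without the 6 cells (median 0.09). Gap43, a growth cone protein, was at 10 CPM in 6 of 26 cells with Slc17a7 and 0 of 25 without, with a log2 ratio of 5.87 that was 0.38 without the 6 cells that stood apart. Of 14 neural progenitor genes 2 were measured and neither was counted; without the 6 cells 1, Hopx, was lower.

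Across the 51 cells, which differ in depth, Spearman's rho between the level of Slc17a7 and the summed level of each list lay between -0.32 (interneuron) and 0.33 (MHC). It was 0.30 with the neural progenitor list, 0.18 with the number of genes at 10 CPM, -0.05 with total reads, 0.02 with the summed granule cell list, 0.12 with the mossy fibre list, -0.01 with the vesicle release list, 0.20 with the GABA list and 0.29 with the oligodendrocyte list. It was -0.32 with the summed haemoglobin genes and -0.37 with Calb1. Over the 47 cells with no more than 12000 genes these last 2 were -0.30 and -0.34.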

How the data were processed

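The deposited counts are reads per gene, made by the authors with STAR and HTSeq on GRCm38.p4 per the submitters' processing notes; versions, settings, strand use and quality control rules: not given in the sources used here. Deposited values of a second kind, the normalized signal, equal these counts divided by 1 factor per cell and were used as an alternative. Of 52 Ascl4 granule cells the series text states, the quality-controlled table holds 51, which were used. The 92 spike-in rows held 4 reads and were left out.

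CPM was the count over the cell's gene reads times 1000000. Set values were counts summed over cells, so deeper cells (1239700 to 20876400 reads) weigh more, and log2 ratios used 1 CPM added, which understates the ratio of low genes. A gene at 10 CPM in every cell of both sets (26 genes) could not be counted in either direction. Intervals of shares were exact (Clopper-Pearson). Genes were measured with a read in 25% of cells and 10 CPM. For a share of 0 the upper limit is 3 cells over the number of cells.

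The parting, the 27 gene lists (3 of whose symbols were not found) and the naming rule were chosen with earlier results of these data known. The rule took, per direction, the 12 genes with the largest difference in share of cells among counted genes at least 1.5-fold in both runs, leaving out predicted genes, pseudogenes, and ribosomal protein and mitochondrially encoded genes. It also took 12 fixed genes (among them Slc17a7, Slc17a6, Slc17a8, Ascl4, Prox1, Calb1, Gad1 and Slc30a3). From each list it took up to 4 measured members, those with the largest difference in share of cells at 10 CPM or more in either direction. Hbb-bs, Hba-a1, Gria1, Scn3b, Slc25a22, Fos, Arc, Egr1, Ifit3, Usp18 and marker genes of other cell types were named after their values were seen. Some genes that the rule names are not reported here.

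Alternatives were other thresholds (5 and 20 CPM, any read), pseudocounts (0.1 and 10 CPM), filters (none, or 50% of cells and 50 CPM), scaling (edgeR TMM, DESeq2 median of ratios, totals without Ascl4 and mitochondrial genes), per-cell means, thinning to 500000 reads, each run alone, without the deepest 10% of cells or those of more than 12000 genes, and with cells dropped by quality control. Chosen after seeing the data were the cells within the interquartile range of genes at 10 CPM, the second run without cells of more than 12000 genes, leaving out the cell of highest haemoglobin, and leaving out all 6 cells that stood apart. The code was tested on simulated data. DESeq2 1.42.0 and edgeR 4.0.16 ran in R 4.3.3, and figures used matplotlib 3.10.9. Other steps used pandas 2.3.3, scipy 1.17.1 and numpy 2.4.6 in Python 3.11.15. Promoter sequence came from RefSeq (GRCm38.p6).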

Additional observations from a re-analysis of the deposited data

How the results depend on the processing

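The number of Ascl4 granule cells with Slc17a7, 26, was 47 at a threshold of any read. The runs, which split the cells, held 14 of 33 and 12 of 18. The 2730 higher genes became 4351 with no expression filter and 955 with the stricter one. The 896 lower genes became 351 with the stricter filter, 1661 in the first run alone, 1678 in cells within the interquartile range of genes per cell, 1358 in the second run without cells of more than 12000 genes and 1460 without the 6 cells that stood apart. TMM and median-of-ratios scaling moved the median log2 ratio of all genes to -0.23 and -0.27, against 0.16, a shift that touches all genes and lists.

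Directions that turned among genes and lists counted in all cells included these, beside those given with the results above. The astrocyte median of 1.32 became -0.18 with the authors' normalized values, -0.54 in the first run and -0.00049 without cells of more than 12000 genes. The oligodendrocyte median of 6.87 became -0.44 in the second run without those cells. Other list medians that turned included these: interferon response, 0.47, became -0.72 within the interquartile range, neuropeptides, 0.52, became -0.72 in the second run without those cells, MHC, -0.21, became 4.12 in the second run, and microglia, 0.53, became -0.75 in the first. Ppm1g became -1.09 within the interquartile range, where Slc30a3 became 0.80. Parp6 became -0.47 as a mean of per-cell CPM, -1.98 with the authors' normalized values and -0.48 after thinning. Prox1 became -1.54 in the second run and -1.48 there without cells of more than 12000 genes. The cause of these turns was not tested, other than that a run or a left-out set holds fewer cells. No paired analysis was possible because the labels give no animal and numbers only name cells.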
